A study of Cyprinus carpio with 6 samples.

Results

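Glycine receptors are chloride channels of the Cys-loop family that carry fast inhibition in the vertebrate central nervous system, above all in hindbrain and spinal cord. Alpha subunits bind glycine and can form channels alone, whereas the beta subunit binds gephyrin, the scaffold that holds the channel at the synapse. The members described here are the glycine receptor subunit genes of common carp (Cyprinus carpio), chosen by the words "glycine receptor subunit" in the description column of the deposited gene table. The wording matched 11 of 53152 genes, of which 7 are alpha and 4 are beta copies. The family was taken up because of its measured values in these same libraries under lead and control, so every value of lead against control below is a description and no independent evidence.

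Brain RNA was sequenced in 6 libraries, 3 from fish exposed to lead and 3 from fish with no agent (control). The labels name no strain, age, dose, duration or sampling time, and do not say whether a library is 1 fish or a pool. The p-values thus reflect variation among these libraries alone, part or all of which could be technical. The RNA protocol in the labels speaks of an adipose type, whereas the tissue label is brain. Total counts were 27841520 to 32826120 in lead libraries and 31159339 to 34848243 in control libraries. Neuron markers fixed for this report were abundant, with 3815 to 4265 summed CPM (counts scaled to library size with TMM factors) over 39 genes in lead brains and 3708 to 4632 in control brains. By the edgeR test described below, 7 of the 28 tested were lower in lead brains and 1 higher at an unadjusted p under 0.05. Over all tested genes 8.77% were lower and 7.53% higher. Lead replicate 3 stood apart in Hox genes, which mark hindbrain and spinal cord, with 81.8 summed CPM over 65 genes against 1.24 to 8.93 in the other 5 libraries. 0 of these 65 genes passed the filter for testing (given with the tests), and 22 had a count of 0 in every library.

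The alpha copies comprise 1 described as alpha-2 (LOC109101174), 2 as alpha-3 (LOC109078453 and LOC109102266), 2 as alpha-4 (LOC109069693 and LOC109087918) and 2 as alphaZ1 (LOC109057001 and LOC109093737), the zebrafish name for the alpha-1 type. The beta copies are LOC109046096, LOC109101391, LOC109056234 and LOC109075782. All 11 carry the table's annotation terms for glycine binding and for glycinergic synaptic transmission, and also that for neuropeptide signaling pathway. The terms stand in the same table as the descriptions, so they are no independent check of membership. By gene ID, 10 of the 11 were found in a RefSeq gene table of another carp assembly (ASM1834038v1), used here for names and neighbours only. That table names LOC109069693 glra4a, LOC109057001 glra1 and LOC109046096 glrbb, and lists the alpha-2 copy LOC109101174 as a pseudogene. In it, 3 members share a chromosome (LOC109069693, LOC109101391 and LOC109093737), and LOC109046096 and LOC109057001 lie on the chromosome that carries the same number in the other of the carp's A and B chromosome sets. The alpha-3 and beta copies LOC109078453 and LOC109056234 share a chromosome in the same way, facing LOC109102266 and LOC109075782. The alpha-4 copy LOC109069693 has no alpha-4 member facing it in that table, in which the second alpha-4 copy, LOC109087918, was the one ID not found. A further row, LOC109093293, shares the KEGG orthology entry of the beta copies but is described only as a hypothetical protein, so it is not a member.

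In control brains 2 of the 4 beta copies were the most abundant members by FPKM (fragments scaled to gene length and library size), the scale on which genes can be compared per length. LOC109046096 averaged 39.1 ± 6.60 FPKM and LOC109101391 22.2 ± 1.69 FPKM (SD, n = 3 each). The alpha-2 copy LOC109101174 came next with 8.14 ± 0.674 FPKM, ahead of the beta copy LOC109056234 with 6.27 ± 0.620, the alpha-4 copy LOC109069693 with 3.37 ± 0.983, the alpha-3 copy LOC109078453 with 2.39 ± 0.0993 and the alphaZ1 copy LOC109057001 with 1.17 ± 0.245 (SD, n = 3 each). The libraries of neighbours in this order did not overlap as far down as LOC109057001. The other 4 copies averaged 0.544 to 0.738 FPKM, and neighbours among them overlapped. Over all 6 libraries LOC109046096 was more abundant than 92.5% of the 32149 genes tested, and the alpha-4 copy LOC109069693 more than 69.1%.

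In lead brains the order differed at 1 place near the top: the alpha-4 copy LOC109069693 had rank 3 with 18.4 ± 12.3 FPKM (SD, n = 3), against rank 5 in control brains. The beta copies LOC109046096 and LOC109101391 kept ranks 1 and 2, with 42.6 ± 5.86 and 22.7 ± 1.86 FPKM (SD, n = 3 each). These ranks are of means, and single lead libraries departed from them. In lead replicate 2 LOC109069693 (32.6 FPKM) lay above LOC109101391 (23.2 FPKM). In lead replicate 1 LOC109069693 (10.8 FPKM) lay below the alpha-2 copy LOC109101174 (13.2 FPKM). In lead replicates 2 and 3 LOC109101174 (3.29 and 4.72 FPKM) lay below LOC109056234 (5.02 and 6.93 FPKM).

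**Figure D1:**
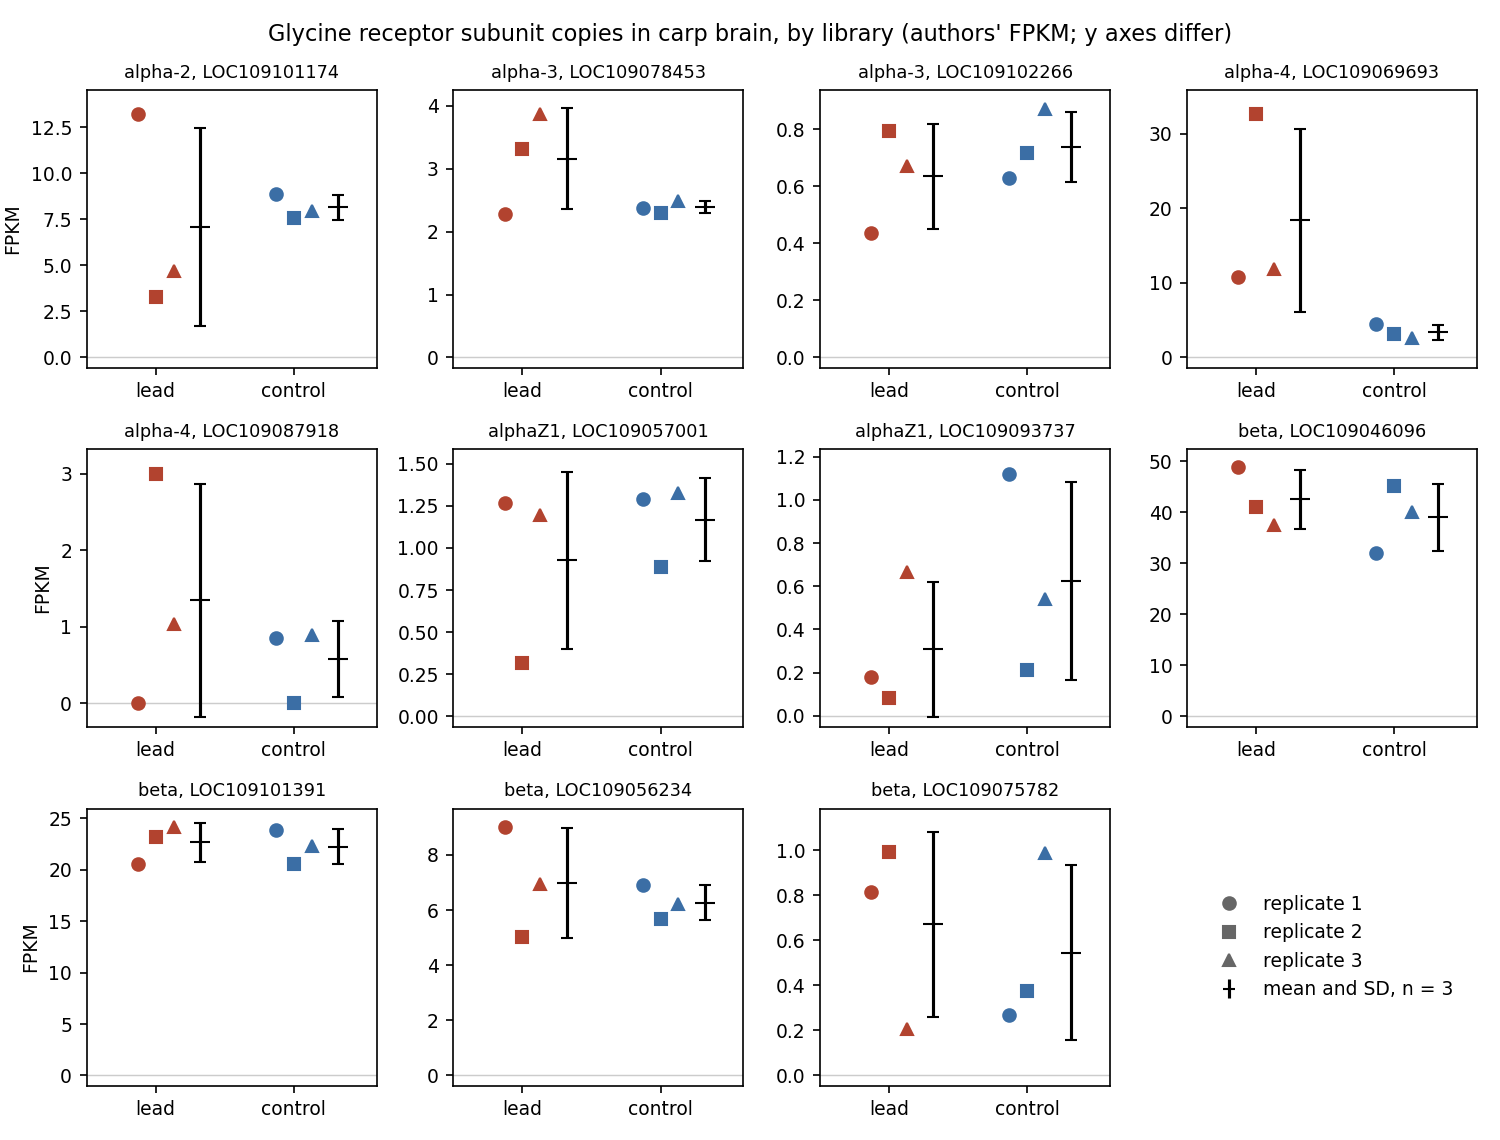
FPKM of each of the 11 glycine receptor subunit copies in the 3 lead libraries and the 3 control libraries, with the mean and SD beside the points; each panel has its own y axis. In the panel of the alpha-4 copy LOC109069693 the lead libraries lie between 10.8 and 32.6 FPKM, above the control libraries at 2.55 to 4.46 FPKM, and in the panels of the beta copies the groups overlap.

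Genes were tested where 3 or more libraries reached 1 FPKM, which 7 of the 11 copies did. With edgeR's quasi-likelihood test over all 32149 genes, 0 of the 7 passed a Benjamini-Hochberg adjusted p of 0.05, where 0.0591% of all tested genes did. The adjusted p of the 7 ranged from 0.159 to 0.942. At an unadjusted p under 0.05, 1 member was higher and 0 were lower, where 7.53% of all tested genes were higher and 8.77% lower. The lead libraries lay wholly above the control libraries in CPM for 2 members, the alpha-4 copy LOC109069693 and the alpha-3 copy LOC109078453, and wholly below for 0, where 11.9% of all tested genes lay above and 12.6% below. DESeq2 called 1 of the 7, LOC109069693, where it called 4.12% of all tested genes. The median log2 fold change of the 7 was 0.23, beside -0.01 over all tested genes. Nothing is read from these counts, since the family was chosen on this contrast.

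The alpha-4 copy LOC109069693 had the largest difference. It lies on sequence NW_017539233.1 from 66819 to 105620 on the minus strand, in the positions of the deposited table, for which the sources used here name no carp assembly. Alpha-4 is a little studied alpha type, for which the human genome holds only a pseudogene. LOC109069693 had 27.7, 83.9 and 28.9 CPM in lead replicates 1, 2 and 3, against 10.4, 7.54 and 5.83 CPM in control replicates 1, 2 and 3. The groups did not overlap, and lead replicate 2 lay far above the other lead libraries. The log2 fold change was 2.56 (SE 0.51), a 5.89-fold higher level. Of the 32149 tested genes 99.5% had a smaller absolute log2 fold change, and the copy was rank 340 by p. Without lead replicate 2 the log2 fold change was 1.83 (SE 0.27), and without lead replicate 3, the library with high Hox counts, it was 2.81 (SE 0.50). The spread of this copy over the 6 libraries was also wide, and 5.01% of tested genes had a wider range of log2 CPM.

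The second alpha-4 copy, LOC109087918, was scarce and irregular. Its counts were 0, 159 and 65 in lead replicates 1, 2 and 3, against 57, 0 and 53 in control replicates 1, 2 and 3. A library at 0 lay in each group, where 3 counts, the limit that a count of 0 allows, would be 0.101 CPM in lead replicate 1 and 0.0931 CPM in control replicate 2. Lead replicate 2, highest in LOC109069693, was highest here too. The sources used here do not say how reads that match several copies were assigned, so the split between similar copies is uncertain for all subunits.

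The alpha-2 copy LOC109101174, the type that in mammals predominates in the developing nervous system, was steady in control brains and uneven in lead brains. It had 18.6, 4.68 and 6.32 CPM in lead replicates 1, 2 and 3, against 11.4, 10.1 and 10.0 CPM in control replicates 1, 2 and 3. Lead replicate 1 lay above every control library and the other two lead libraries below every control library. The means were 9.88 ± 7.63 CPM in lead brains and 10.5 ± 0.803 CPM in control brains (SD, n = 3 each). The log2 fold change was -0.09 (SE 0.49). Its sign rests on single libraries: leaving out lead replicate 1 gave -0.93, leaving out lead replicate 2 gave 0.24, and leaving out lead replicate 3 gave 0.14. The alpha-2 copy lies on NC_031722.1 from 4443749 to 4457154 on the minus strand.

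The alphaZ1 copies belong to the alpha-1 type, which in mammals is the main adult alpha subunit of spinal cord and brainstem. LOC109057001 had 5.24, 1.34 and 4.69 CPM in lead replicates 1, 2 and 3, against 4.89, 3.44 and 4.91 CPM in control replicates 1, 2 and 3. Lead replicate 2 was the lowest of all libraries, and the groups overlapped. The log2 fold change was -0.23 (SE 0.49), and it was 0.17 without lead replicate 2. The second alphaZ1 copy, LOC109093737, had only 4 to 36 counts in lead libraries and 12 to 64 counts in control libraries. It lies within the span of LOC109094091, a kinesin light chain gene on the opposite strand, and whether counting used the strand is not given, so its few reads cannot be assigned with certainty.

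For alpha-3, a type described in mammalian dorsal horn and retina, the main copy LOC109078453 had 4.74, 6.87 and 7.59 CPM in lead replicates 1, 2 and 3, against 4.49, 4.47 and 4.60 CPM in control replicates 1, 2 and 3. Lead replicate 1 lay only just above the control libraries in CPM, and in FPKM it lay below them all, with 2.286 FPKM against 2.294 to 2.492 FPKM. The groups of this copy thus overlapped in FPKM and not in CPM. The log2 fold change was 0.50 (SE 0.27). The minor copy LOC109102266 had 25 to 41 counts in lead libraries and 40 to 49 counts in control libraries. The ratio of the major to the minor copy in FPKM was 4.15 to 5.75 in lead libraries and 2.87 to 3.79 in control libraries.

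The beta subunit anchors the receptor through gephyrin. LOC109046096 had 124.6, 105.3 and 90.8 CPM in lead replicates 1, 2 and 3, against 74.4, 108.3 and 90.98 CPM in control replicates 1, 2 and 3, a log2 fold change of 0.23 (SE 0.19). It lies on NC_031738.1 from 11869944 to 11890246 on the plus strand. LOC109101391 had 55.6, 63.1 and 62.1 CPM in lead replicates 1, 2 and 3, against 59.0, 52.3 and 53.8 CPM in control replicates 1, 2 and 3 (log2 fold change 0.13, SE 0.13). Its whole range over the 6 libraries was 0.27 on the log2 CPM scale, and 98.3% of tested genes had a wider one. It lies within the span of LOC109101763, a rho guanine nucleotide exchange factor gene on the opposite strand, which had 136, 165 and 234 counts in lead replicates 1, 2 and 3, against 358, 295 and 321 counts in control replicates 1, 2 and 3. Without a stated strand setting the reads of this pair cannot be told apart with certainty. LOC109056234 had 25.1, 14.1 and 18.3 CPM in lead replicates 1, 2 and 3, against 17.6, 14.9 and 15.5 CPM in control replicates 1, 2 and 3 (log2 fold change 0.26, SE 0.23). The groups overlapped in each of these 3 copies. The fourth, LOC109075782, had 12 to 46 counts in lead libraries and 16 to 50 counts in control libraries, and lies within the span of a calcium uptake protein gene (LOC109075779) on the same strand.

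**Figure D2:**
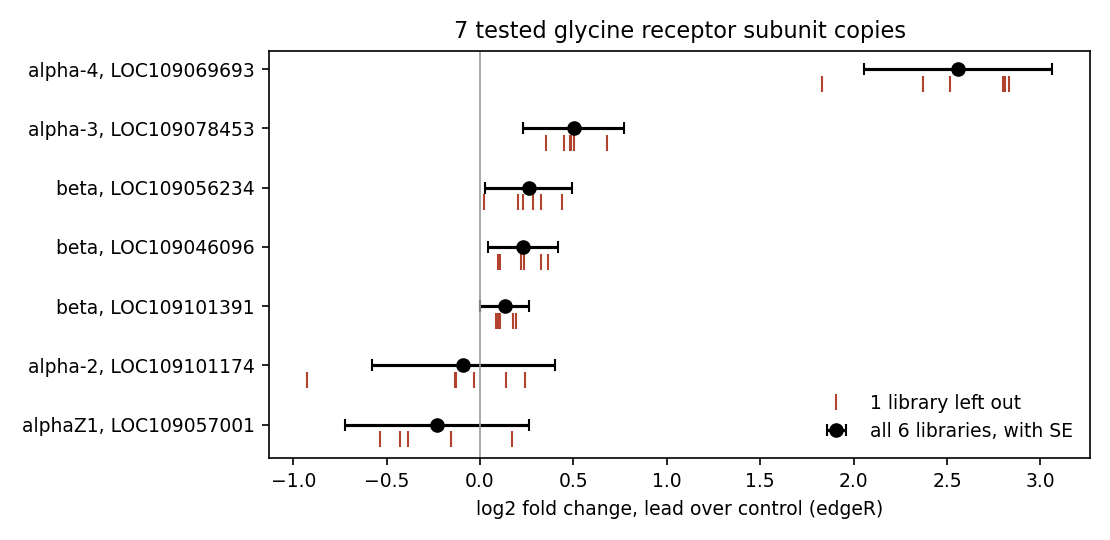
Log2 fold change of lead over control for the 7 tested copies (points, with the SE derived from the edgeR test) and the values with 1 library left out (red ticks). The alpha-4 copy LOC109069693 stands at 2.56 with left-out values from 1.83 to 2.83, while the other 6 copies lie between -0.23 and 0.50.

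The make-up of the family was set out by summed FPKM. Beta copies summed to 79.4, 70.3 and 68.9 FPKM in lead replicates 1, 2 and 3, against 63.1, 71.7 and 69.5 FPKM in control replicates 1, 2 and 3, and the groups overlapped. Alpha copies summed to 28.2, 43.4 and 24.0 FPKM in lead replicates 1, 2 and 3, against 19.6, 14.8 and 16.6 FPKM in control replicates 1, 2 and 3. The alpha sums of the groups did not overlap. With LOC109069693 left out of the alpha sum, it was 17.4, 10.8 and 12.2 FPKM in lead replicates 1, 2 and 3, against 15.2, 11.7 and 14.1 FPKM in control replicates 1, 2 and 3, and the groups overlapped. Alpha copies made up 30.1% ± 7.00 of the family in lead brains and 20.04% ± 3.36 in control brains (SD, n = 3 each). Among the alpha copies, both alpha-4 copies together made up 38.4%, 82.1% and 53.7% in lead replicates 1, 2 and 3, against 27.1%, 21.0% and 20.7% in control replicates 1, 2 and 3. The alpha-2 copy had the largest share of alpha FPKM in each control library, 45.3% to 51.2%, and had 7.57% to 46.8% in lead libraries. In lead replicate 1 alpha-2 was still the largest alpha type, and in lead replicates 2 and 3 alpha-4 was. In bulk RNA, more or fewer cells of a type cannot be told apart from more or less RNA per cell.

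**Figure D3:**
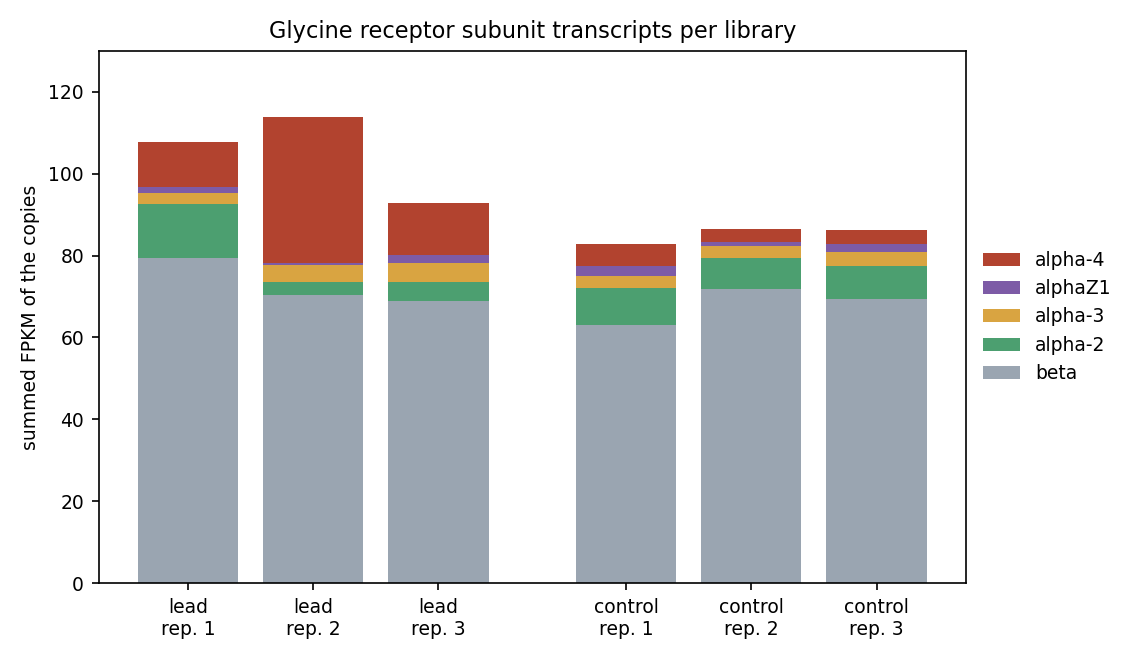
Summed FPKM of the copies of each subunit type in the 3 lead libraries (left) and the 3 control libraries (right), stacked per library. The beta block is of like height throughout, from 63.1 to 79.4 FPKM, and the alpha-4 block is 10.8 to 35.6 FPKM in lead libraries and 3.11 to 5.31 FPKM in control libraries.

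Copies of the same subunit differed in level. Over all 6 libraries LOC109046096 had 1.82 times the mean FPKM of its counterpart LOC109101391, and LOC109056234 had 10.9 times that of LOC109075782. The major copy of alpha-3 had 4.04 times the FPKM of the minor one, and that of alphaZ1 2.24 times. Likeness of pattern was measured as the root mean square difference of centred log2 CPM over the 6 libraries, where 0 means identical patterns. The 3 tested beta copies differed from each other by 0.28 to 0.30. The alpha-3 copies differed by 0.34, the alphaZ1 copies by 0.74 and the alpha-4 copies by 2.58, where counts of 0 enter.

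Among 27158 tested genes whose description was informative, those most like the alpha-4 copy LOC109069693 in pattern were LOC109098389 (described as metalloproteinase inhibitor 3, distance 0.40), LOC109071724 (CMRF35-like molecule 4, 0.50), LOC109064408 (growth arrest-specific protein 2, 0.50) and the ciart copies LOC109111947 (0.51) and LOC109047291 (0.52), which encode a repressor of the circadian clock. The median distance over all 27158 genes was 1.39. The first 3 of these genes passed the filter through their lead libraries alone, and the 6 libraries compared are those of the contrast on which the family was chosen. LOC109069693 is the most abundant alpha copy over all 6 libraries, whereas in control brains alone the alpha-2 copy LOC109101174 is. The genes most like the beta copy LOC109046096 were LOC109045386 (Krueppel-like factor 8, 0.04), LOC109085196 (the proton pump assembly factor vma21, 0.04), LOC109047548 (bromodomain-containing protein 2, 0.05), LOC109092019 (a calcium channel alpha-2/delta-2 subunit, 0.05) and LOC109073642 (a mannose-1-phosphate guanyltransferase, 0.05), against a median of 0.42. For LOC109087918, whose range of log2 CPM was the widest of the 11 members at 6.94, the nearest were LOC109064763 (transmembrane protein 243, 0.63), LOC109081441 (glutathione S-transferase theta-1, 0.84), LOC109086266 (amphiphysin, 0.88), LOC109109621 (the RNA helicase DDX52, 0.90) and LOC109075862 (the ubiquitin ligase TRIM33, 0.90), against a median of 2.74 over 27159 genes. Each of these had a count of 0 in control replicate 2 and 0 to 3 counts in lead replicate 1. LOC109087918 had a count of 0 in both libraries. These lists describe 6 libraries.

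Other genes of glycinergic transmission were followed through a list of 51 copies, of which 35 were tested. By edgeR 0 of the 35 passed over all genes. At an unadjusted p under 0.05, 1 of the 35 was higher and 8 were lower, beside 7.53% higher and 8.77% lower over all tested genes. By non-overlap of the libraries 3 lay above and 8 below, beside 11.9% above and 12.6% below over all tested genes. The median log2 fold change was -0.32, with 12 copies above 0 and 23 below. DESeq2 called 3 of the 35, beside 4.12% of all tested genes, and these 3 were chloride cotransporters with lower values in lead brains. LOC109086975 and LOC109110634 passed the filter through their control libraries alone, so they had to lie lower in lead brains. Both are within each count of lower copies, and LOC109110634 is among the 3 that DESeq2 called.

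At the supply side, glycine transporter 1, which clears glycine through glia, had 1 tested copy. This copy, LOC109086975, had 1.93, 0.960 and 1.54 CPM in lead replicates 1, 2 and 3, against 4.80, 2.61 and 4.17 CPM in control replicates 1, 2 and 3. This copy passed the filter through its control libraries alone, so that its groups had to differ, and its log2 fold change of -1.38 (SE 0.41) is given as a description. The other copy, slc6a9, had 8, 17 and 11 counts in lead replicates 1, 2 and 3, against 63, 32 and 67 counts in control replicates 1, 2 and 3, and stayed under the filter. Markers of astroglia lay wholly lower in the same libraries, with 537.1 to 618.2 summed CPM over 6 genes in lead brains and 912.2 to 1050 in control brains; their part in the glycine transporter values was not tested. Glycine transporter 2, the transporter of glycinergic nerve endings, was near the detection limit. Its main copy slc6a5 had 7, 11 and 50 counts in lead replicates 1, 2 and 3, against 10, 14 and 36 counts in control replicates 1, 2 and 3. The vesicular inhibitory amino acid transporter LOC109063084, which loads glycine and GABA into vesicles, had 46.8, 40.5 and 77.8 CPM in lead replicates 1, 2 and 3, against 71.0, 51.6 and 80.6 CPM in control replicates 1, 2 and 3, and the groups overlapped (log2 fold change -0.30, SE 0.28).

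Gephyrin, the scaffold under the receptor, had 10 copies, of which 8 were tested and 0 had an unadjusted p under 0.05, beside 7.53% higher and 8.77% lower over all tested genes. LOC109110401, the copy with the most counts, had 48.7, 42.3 and 41.3 CPM in lead replicates 1, 2 and 3, against 36.96, 35.1 and 38.8 CPM in control replicates 1, 2 and 3, and the groups did not overlap in CPM (log2 fold change 0.26, SE 0.14). In FPKM the groups of this copy overlapped, with lead replicate 2 at 22.5 below control replicate 3 at 23.2. The log2 fold changes of the other gephyrin copies were LOC109048025 0.17, LOC109048357 0.04, LOC109067273 -0.58, LOC109080686 0.45, LOC109101047 -0.55, LOC109108452 -0.19 and LOC109113708 0.41. Their groups overlapped in CPM in each case. Both copies of collybistin, the exchange factor that brings gephyrin to the membrane, overlapped between the groups as well.

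The chloride cotransporters set the direction in which glycine receptors drive current: slc12a5 extrudes chloride and slc12a2 takes it up. Of 11 tested copies of both types, an unadjusted p under 0.05 was reached by 5, each lower in lead brains, beside 8.77% lower and 7.53% higher over all tested genes. The 5 hold copies of both types, so the count gives no direction of current. Every tested slc12a5 copy had a log2 fold change below 0, from -3.11 to -0.58. The slc12a2 copies lay on both sides of 0, from -1.23 to 0.35. The 5 include LOC109110634, which passed the filter through its control libraries alone and so had to lie lower. The slc12a2 copy LOC109097729, the most abundant of the cotransporters by mean FPKM over all 6 libraries, went the other way. It had 110.96, 97.6 and 94.6 CPM in lead replicates 1, 2 and 3, against 63.9, 92.3 and 81.9 CPM in control replicates 1, 2 and 3. Its groups did not overlap in CPM (log2 fold change 0.35, SE 0.17, edgeR adjusted p = 0.349), and it was chosen after its values were seen. In FPKM its groups overlapped, with lead replicate 2 at 28.42 below control replicate 2 at 28.66. The 2 of smallest p were both slc12a5 copies. LOC109110634 had 1.25, 0.845 and 1.295 CPM in lead replicates 1, 2 and 3, against 3.99, 3.23 and 22.1 CPM in control replicates 1, 2 and 3 (log2 fold change -3.11, SE 0.81). Control replicate 3 lay far above the rest, and this copy too passed the filter through its control libraries alone, so the value is a description. LOC109090241 had 3.01, 1.69 and 3.76 CPM in lead replicates 1, 2 and 3, against 6.17, 6.14 and 10.7 CPM in control replicates 1, 2 and 3 (log2 fold change -1.44, SE 0.39, edgeR adjusted p = 0.195). Of the glycine cleavage system, which breaks glycine down, 5 of 8 copies were tested, and their median log2 fold change was -0.07. Of these, 2 lay above 0 and 3 below. The dihydrolipoyl dehydrogenase copy LOC109068193 lay lowest, and its groups did not overlap in CPM (log2 fold change -0.42, SE 0.18, edgeR adjusted p = 0.299). The 4 tested copies of neuroligin-2, an adhesion protein of inhibitory synapses, had a median of -0.29. Its 2 copies with the most counts lay above 0 (LOC109058635 0.33, LOC109094698 0.30). The 2 scarcer ones lay below (LOC109058411 -1.01, LOC109080766 -0.89). The 3 of serine hydroxymethyltransferase, which interconverts serine and glycine, had a median of -0.44. Its most abundant copy, LOC109051580, was higher in lead brains (log2 fold change 0.47, SE 0.18, edgeR adjusted p = 0.263). The scarcer LOC109113413 (-0.44) and LOC109070953 (-1.17) lay below 0.

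**Figure D4:**
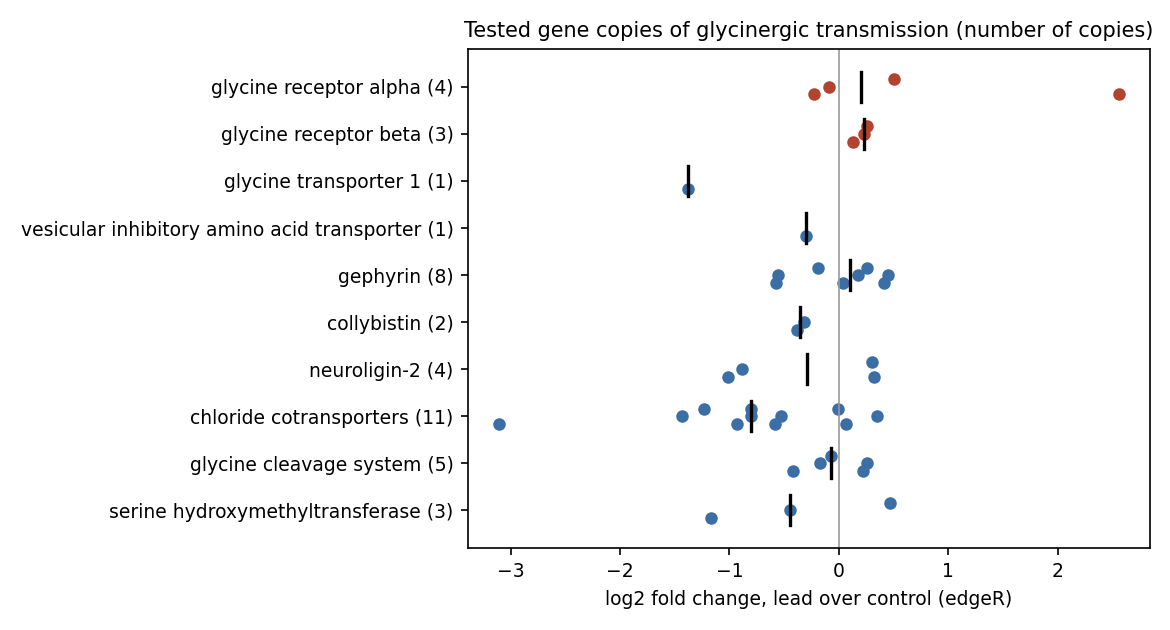
Log2 fold change of lead over control for each tested copy of the glycine receptor (red) and of the other genes of glycinergic transmission (blue), with the median of each group as a black bar; the number of tested copies stands in brackets. The alpha-4 copy at 2.56 lies apart from the other receptor copies, gephyrin copies lie on both sides of 0, and chloride cotransporters (slc12a5 and slc12a2 together) have a median of -0.81.

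Markers of other tissue that a brain sample can hold were set beside the receptor values. Telencephalon markers lay higher in lead brains in sum, with 496.4 to 566.3 CPM over 36 genes against 367.9 to 484.9 in control brains, whereas the median log2 fold change of their 23 tested genes was -0.28. A large part of the sum was 1 eomesodermin copy, LOC109052249. It had 176.35, 260.5 and 183.1 CPM in lead replicates 1, 2 and 3, against 91.9, 97.0 and 122.8 CPM in control replicates 1, 2 and 3. Of the 23, 2 were higher and 3 lower at an unadjusted edgeR p under 0.05, beside 7.53% higher and 8.77% lower over all tested genes. Cerebellum markers overlapped, with 2299 to 3360 CPM over 22 genes in lead brains and 1982 to 2683 in control brains, as did markers of hypothalamus and pituitary with 462.9 to 1640 CPM over 16 genes in lead brains and 557.2 to 2706 in control brains. Markers of retina and pineal summed to 22.5 to 29.0 CPM over 30 genes in lead brains and 11.7 to 27.5 in control brains. Oligodendrocyte markers summed to 433.5 to 492.0 CPM over 12 genes in lead brains and 477.6 to 825.6 in control brains, and haemoglobins to 1019 to 1450 CPM over 22 genes in lead brains and 835.6 to 1223 in control brains. Skeletal muscle markers reached at most 12.3 CPM over 18 genes in any lead library and 10.02 in any control library. Lead replicate 2, highest in LOC109069693, had the highest telencephalon and cerebellum sums and the lowest of hypothalamus and pituitary. The part of such tissue in the receptor values was not tested.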

How the data were processed

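Brain RNA of common carp was selected for poly(A) and sequenced in paired ends, per the labels' protocols. Bowtie 0.12.2, HISAT2 2.0, StringTie 1.3.0 and the mouse build mm8 are listed with no role in the submitters' processing notes, although the table places genes on carp sequences. Counts and FPKM are those of the deposited gene table, in columns headed count and FPKM. The counts are whole numbers, and the headers do not say how either measure was computed. Here, edgeR 4.0.16 in R 4.3.3 (TMM, robust quasi-likelihood, Benjamini-Hochberg) compared lead with control on the 32149 genes that reached 1 FPKM in 3 or more libraries. Each SE was derived as the absolute log2 fold change over the square root of the quasi-likelihood F statistic. The code was tested on simulated data. CPM are TMM-scaled; distances use log2(CPM + 0.05). The members and gene lists were chosen with earlier results of these data known. Named were all members (per-library CPM where mean FPKM was at least 1), glycine and vesicular transporter and gephyrin copies, the 2 other pathway genes of smallest p, and the 5 genes nearest in pattern to the widest-ranging member, to the alpha and to the beta copy of highest mean FPKM over all 6 libraries. Untested slc6a9 and slc6a5, and the neuroligin-2 and serine hydroxymethyltransferase copies, were named after their values were seen. So were the cotransporter copies LOC109097729 and LOC109083255, the dihydrolipoyl dehydrogenase copy LOC109068193 and the telencephalon marker LOC109052249. Alternatives were other scalings, filters, DESeq2 1.42.0, limma 3.58.1, no robust step, a replicate block and leaving out each library.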

Additional observations from a re-analysis of the deposited data

How the results depend on the processing

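Over 15 alternatives, the count of called members was 0 in 14 and 1 with DESeq2, where LOC109069693 had an adjusted p of 2.50e-06 against an edgeR adjusted p of 0.159. The count for the other genes of glycinergic transmission was 0 in 14 and 3 with DESeq2. With 1 library left out, both counts were 0 throughout. The median log2 fold change of tested members ran from 0.11 to 0.28 with 1 library left out, and from 0.11 to 0.24 in the other settings. It was 0.12 with library totals only, a scaling that moved the median over all tested genes to -0.11. With the replicate block it was 0.23, 0 members were called, and over all genes 1 was called, against 19 without it. Libraries with the same number deviated together with correlations of 0.13, 0.04 and 0.09, and those with different numbers with -0.13 to 0.05. Lead replicates 1 and 3 correlated best with the control library of the same number, and lead replicate 2 with control replicate 3. These values do not settle whether the numbers pair the samples, so the block is given only as an alternative. The log2 fold change of LOC109069693 stayed between 1.83 and 2.83 in all 15, with edgeR and limma adjusted p from 0.123 to 0.472. Signs of LOC109101174 and LOC109057001 turned when a lead library was left out, as given above. The 4 copies under 1 FPKM on average had at most 159 counts in a library.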

Other observations

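The row LOC109093293, which shares the KEGG orthology entry of the beta copies and is described only as a hypothetical protein, had 9.91, 9.87 and 3.89 CPM in lead replicates 1, 2 and 3, against 5.72, 4.37 and 8.25 CPM in control replicates 1, 2 and 3. The groups overlapped, and the log2 fold change was 0.37 (SE 0.41). The 3 rows described as N-arachidonyl glycine receptors, which are G protein-coupled receptors and not chloride channels, had 0 to 206 counts in lead libraries and 2 to 197 counts in control libraries. LOC109094196 among them had a count of 0 in every lead library and 8, 2 and 4 counts in control replicates 1, 2 and 3. Of the 3 genes whose span overlaps a member, the kinesin light chain copy LOC109094091 had 391, 636 and 972 counts in lead replicates 1, 2 and 3, against 1725, 1283 and 1962 counts in control replicates 1, 2 and 3.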
